A study of Mus musculus with 9 samples.

Results

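The cells described here were the ependymal ciliated cells of mouse ependymoma and of control brain, read as single-cell transcriptomes. In each of 9 libraries the 10000 barcodes with the most unique molecular identifiers (UMIs, counts of distinct RNA molecules) were considered, and a barcode was kept when at least 200 genes were detected and under 15% of its UMIs came from mitochondrial genes. A kept barcode was called ependymal when it held a UMI of at least 4 of 8 signature genes, Ccdc153, Tmem212, Dynlrb2, Rarres2, Ak7, Foxj1, Rsph1 and Mia. This rule found 103 of 64643 kept barcodes, 89 in tumors and 14 in controls.

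Ependymal cells form the ciliated lining of the brain ventricles, and the beating of their many motile cilia moves cerebrospinal fluid. They arise from radial glia, and the transcription factor Foxj1, together with factors of the RFX family, switches on the genes of the ciliary axoneme, the microtubule rod with its dynein motors, radial spokes and central pair. Ependymomas carry the name of this lining, and supratentorial ependymomas are often driven by a fusion of ZFTA with RELA, a subunit of NF-κB.

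The samples were 5 tumors from EPZFTA-RELA mice (NestinCreERT2;Fus1) and 4 brains from control mice (NestinCreERT2;TdT), all aged 6 to 8 weeks. Both groups carried the NestinCreERT2 allele, in which a Cre recombinase that tamoxifen activates is placed under Nestin control. The methods describe the tumor allele as a Nestin-controlled cassette of the ZFTA-RELA fusion with luciferase behind an internal ribosome entry site, so a luciferase transcript is made under Nestin control and does not mark malignancy as such. The tissue was dissociated, cleared on Percoll and sorted with DAPI and an antibody to the red-cell antigen Ter119 before 10x 5′ capture, and each library was labelled as a separate sample without stating whether it came from 1 animal.

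The libraries held between 14967680 and 178086164 UMIs, and between 2846 and 9999 barcodes per library were kept, with medians of 814 to 4503 UMIs per kept barcode. Between 3 and 31 kept barcode sequences were shared by each of the 28 pairs among 8 libraries, control replicate 4 not being compared, and 0 of them were shared between ependymal barcodes. In control replicate 4 the deposited gene and barcode lists were shorter than the matrix, and its rows were read in the gene order of the other libraries. All values below are UMI counts or CPM (UMI counts scaled to 1e6 UMIs) summed over the cells named; UMI counts do not scale with transcript length, and levels are compared between cells and not between genes.

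Checked against its markers, the label held for part of the set only. Of the 103 barcodes, 59 had UMIs of 6 to 8 signature genes, and all 59 held Ccdc153 and 58 also held Tmem212, both genes of motile ciliated cells. The remaining 44 had 4 or 5 signature genes, and 34 of these 44 held neither Ccdc153 nor Tmem212. The 59 barcodes lay in 5 tumors and 2 controls, with 11, 23, 1, 8 and 13 in tumor replicates 1 to 5, and 1 and 2 in control replicates 1 and 2. Control replicates 3 and 4 had no such barcode among those kept, but 5 and 2 barcodes with at least 6 signature genes there exceeded the mitochondrial limit. The split between 6 to 8 and 4 to 5 signature genes was drawn after these values were seen, and it orders barcodes by the same genes that chose them, so values of the signature genes are a description only.

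**Figure D1:**
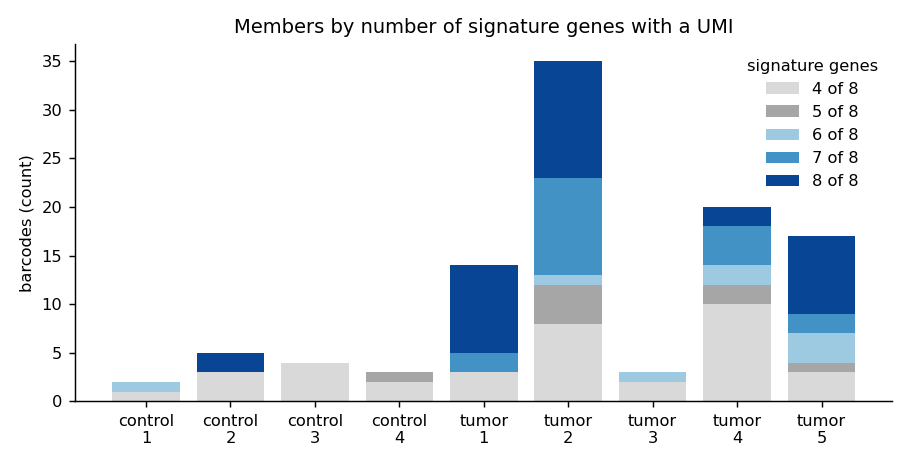
Number of ependymal barcodes in each library (y axis, count), stacked by how many of the 8 signature genes had a UMI. Blue segments, 6 to 8 genes, make up 56 of the 89 barcodes of the tumors and 3 of the 14 barcodes of the controls.

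The other ciliary genes, 131 in 7 lists that hold none of the 8 signature genes, differed between the bands, with overlapping ranges. Barcodes with 6 to 8 signature genes held a median of 57 of these 131 genes, and a median of 1.97% of their UMIs came from them (range 0.432% to 3.68%). Barcodes with 4 or 5 signature genes held a median of 18.5 of the 131 genes and 0.350% of their UMIs (range 0.118% to 1.85%). Just inside the rule, 36 barcodes with exactly 4 signature genes had a median of 17.5 ciliary genes and 0.322% of UMIs. Just outside it, 282 barcodes with exactly 3 signature genes had a median of 10 ciliary genes and 0.188% of UMIs. Depth was similar across that border, with a median of 7496.5 UMIs inside and 6493.5 outside. Choroid plexus cells (at least 4 of 8 choroid markers), an epithelium that is continuous with the ependyma and also bears cilia, had 0.317% to 0.431% ciliary UMIs in the 5 libraries where they were summed. All other kept barcodes together had 0.250% to 0.267% in controls and 0.108% to 0.178% in tumors. Barcodes with exactly 3 signature genes had medians of 0.314% in controls and 0.174% in tumors. Of the 36 with exactly 4, 10 met the choroid markers, and the border was not compared within groups.

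**Figure D2:**
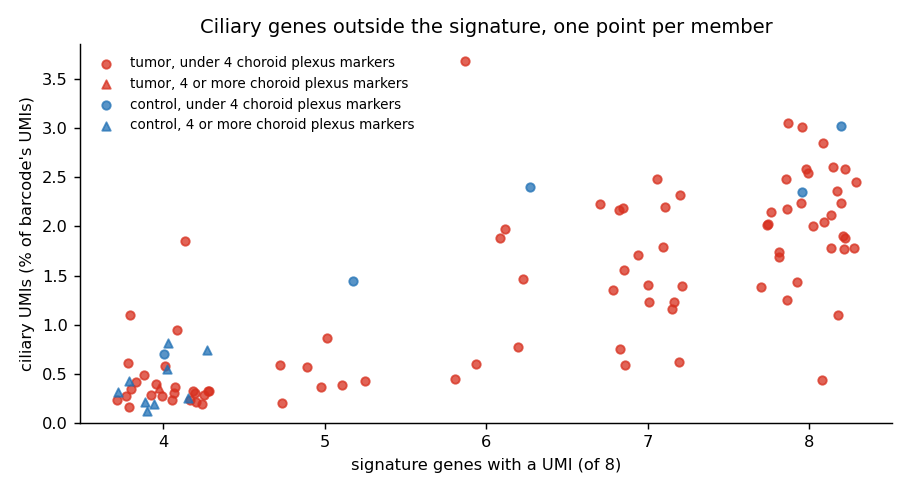
Share of each ependymal barcode's UMIs (y axis, percent) that came from 131 ciliary genes outside the signature, by the number of signature genes with a UMI (x axis, points spread sideways). Red marks tumors and blue marks controls, and triangles mark barcodes with 4 or more of 8 choroid plexus markers, all of which lie at 4 signature genes and below 1%.

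Most control barcodes of the rule carried choroid plexus genes. Of the 11 control barcodes with 4 or 5 signature genes, 9 had UMIs of at least 4 of 8 choroid plexus markers, and their counts of Ttr, which encodes the transthyretin that the choroid plexus secretes in bulk, ran from 739 to 4148 UMIs per barcode. In the tumors 1 of 89 barcodes did so, in tumor replicate 1, with 1629 Ttr UMIs. Among the 59 barcodes with 6 to 8 signature genes the Ttr count was at most 3 UMIs, and Kcnj13, Kl, Prlr and Slc4a5, marker genes of that epithelium, were at 0 UMIs. The other 4 choroid markers had UMIs in some of these barcodes, most often Folr1, a folate receptor, with a UMI in 23 of the 56 tumor barcodes of this band and in 0 of the 3 control barcodes. Of the 33 tumor barcodes with 4 or 5 signature genes, 6 held at least 3 of 6 cell cycle markers, 5 at least 4 of 8 microglia markers and 6 at least 4 of 7 tanycyte markers. In the 6 to 8 band the same counts were 2, 3 and 1 of 59, and 4 of 59 held at least 4 of 8 neuronal markers, 2 of them among its 3 control barcodes. The ciliary gene values below are those of the 6 to 8 band unless all ependymal barcodes are named.

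The first comparison asked how often ependymal barcodes were captured. They made up 0.0246%, 0.0673%, 0.0622% and 0.0420% of the kept barcodes of control replicates 1 to 4. In tumor replicates 1 to 5 they made up 0.492%, 0.587%, 0.0447%, 0.200% and 0.170%. Thus 4 of 5 tumors lay above all controls, and tumor replicate 3, the shallowest library, lay among them with 3 of 6707 barcodes. The means were 0.299% ± 0.230 (SD, n = 5) and 0.0490% ± 0.0196 (SD, n = 4), a difference of 0.250 percentage points with a two-sided exact permutation p = 0.0476. Leaving out any library other than tumor replicate 3 took this p above 0.05, to between 0.0714 and 0.107, with differences of 0.178 to 0.282 points. With at least 3 of the 6 signature genes other than Rarres2 and Mia, the difference no longer passed 0.05 in the same test. Tumor replicates 3 and 4, at 0.0298% and 0.110%, then lay below control replicate 2, at 0.135%, and tumor replicates 1, 2 and 5 above all controls. Without the choroid-marked barcodes, and again with 4 of 8 signature genes, the difference was 0.275 points (exact permutation p = 0.0159, all 5 tumors above all controls). This setting was added after the data were seen. It took out 9 of 14 control barcodes but 1 of 89 tumor barcodes, and no like removal was made for doubtful tumor barcodes. A larger difference was thus built into it, and its p is no support for the difference.

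The mitochondrial limit fell unevenly on the groups. Barcodes with at least 4 signature genes that were not kept numbered 33 in controls, of which 28 exceeded the limit, against 14 kept; in tumors 7 were not kept, of which 4 exceeded it, against 89 kept. Among barcodes with at least 6 signature genes, controls had 3 kept and 14 not kept, 13 of these over the limit, and tumors had 56 kept and 2 not kept. With no mitochondrial limit, a setting added after these counts were seen, the difference shrank to 0.0872 points (exact permutation p = 0.175), and with a stricter limit of 10% it grew to 0.432 points (exact permutation p = 0.0159). Counted over barcodes with few neuronal markers it was 0.135 points (p = 0.429 by the same exact permutation test), with 1, 1, 1 and 0 ependymal barcodes left in control replicates 1 to 4, so the size of the difference depended on which barcodes entered the count. Whether ependymal cells were more numerous, better preserved or more often dissected cannot be told apart in these libraries.

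The 6 to 8 band was then set beside barcodes with a luciferase UMI that were not ependymal (Luc-positive cells, 8245 in 5 tumors). This class is mixed: 15.6% of it met the microglia markers and 23.9% the astrocyte markers, and 15.9% of all microglia of the tumors held a luciferase UMI. Folds are of summed CPM within a tumor, over the 4 tumors with at least 5 such ependymal barcodes (replicates 1, 2, 4 and 5), a limit set after their numbers were known. Because the barcodes were chosen by co-expressed ciliary genes, these values are a description with no test. The ciliary genes together made up 2.22%, 1.76%, 1.53% and 1.86% of UMIs in the 6 to 8 band of these 4 tumors, against 0.159% to 0.194% in their Luc-positive cells. The single barcode of tumor replicate 3 had 3.68%, from 24 ciliary UMIs. Control replicates 1 and 2, with 1 and 2 barcodes, had 2.40% and 2.83%, above each of the 4 tumors, a difference that was not tested. Over all ependymal barcodes the ciliary sum exceeded that of the Luc-positive cells by 2.58 ± 0.87 on the log2 scale (SD, n = 5, and 2.59 without the choroid-marked barcode), and over the 6 to 8 band by 3.64 ± 0.55 (SD, n = 5). The band value includes the single barcode of tumor replicate 3, which at 3.68% against 0.155% raises both its mean and its spread.

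A gene was counted as higher or lower when its CPM, with 10 CPM added, differed at least 2-fold in the same direction in all 4 tumors. Of the 131 ciliary genes, 83 were higher (63.4%) and 0 lower, with a median log2 difference of 2.34. Over all 22241 genes with a UMI, 519 (2.33%) were higher and 327 (1.47%) lower, with a median of -0.03.

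The structural genes of the motile axoneme stood furthest apart. Axonemal dynein arm genes, which encode the motors of ciliary beating, summed to 32.5-fold to 46.8-fold the Luc-positive level, and 17 of 21 were higher. Dnah11, a heavy chain of the outer arm, reached 168, 248, 150 and 177 CPM in tumor replicates 1, 2, 4 and 5, against 0 to 3.53 CPM in Luc-positive cells of the 5 tumors. Dnah6, an inner-arm heavy chain, varied more, from 25.0 CPM in tumor replicate 4 to 404 CPM in tumor replicate 1. Central pair genes summed to 14.3-fold to 61.9-fold, with 10 of 12 higher, and Cfap54 was at 370, 420, 300 and 437 CPM against 2.33 to 11.2 CPM. Radial spoke and nexin link genes, which connect the doublets, summed to 12.01-fold to 17.4-fold, with 11 of 16 higher.

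Genes for proteins inside or along the microtubule doublets formed the longest list, with 27 of 34 higher and sums of 24.5-fold to 42.2-fold. Fam183b was at 1043, 830, 375 and 753 CPM in the 4 tumors and at 800 and 1154 CPM in control replicates 1 and 2, against 0.67 to 7.47 CPM in Luc-positive cells. Meig1 was at 791, 577, 599 and 511 CPM in the tumors, and at 911 CPM in control replicate 2. Control replicate 1 had a single barcode of 2499 UMIs, in which 1 UMI is 400 CPM, so its values of 2 UMIs of Fam183b and 1 UMI of Meig1 place it neither above nor below the tumors.

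Mlf1, Sntn and Tekt1 of this list are shown with the start of their genes because their promoters hold the X-box-like motif GTTGCCAT, the letters that RFX factors are known to bind. The sequences are the RefSeq promoter windows of GRCm38.p6, from 250 bases before to 50 bases after the start site, printed 5′ to 3′ on the strand of the gene, with the motif in capitals. Mlf1 is at chr3:67373847-67374146 (plus strand), Sntn at chr14:13670626-13670925 (plus strand) and Tekt1, a tektin of the doublet wall, at chr11:72361833-72362132 (minus strand).
Mlf1: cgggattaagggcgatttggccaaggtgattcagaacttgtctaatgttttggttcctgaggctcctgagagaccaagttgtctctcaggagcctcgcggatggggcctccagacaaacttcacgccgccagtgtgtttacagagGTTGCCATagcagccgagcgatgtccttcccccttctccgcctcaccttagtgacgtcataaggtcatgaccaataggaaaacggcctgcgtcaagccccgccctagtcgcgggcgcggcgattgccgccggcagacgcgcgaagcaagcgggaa
Sntn: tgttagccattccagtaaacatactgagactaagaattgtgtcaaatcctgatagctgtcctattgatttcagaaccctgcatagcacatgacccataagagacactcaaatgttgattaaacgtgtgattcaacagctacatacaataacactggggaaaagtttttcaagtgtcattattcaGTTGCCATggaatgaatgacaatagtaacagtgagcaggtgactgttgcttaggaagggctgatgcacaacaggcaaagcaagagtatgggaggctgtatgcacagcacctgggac
Tekt1: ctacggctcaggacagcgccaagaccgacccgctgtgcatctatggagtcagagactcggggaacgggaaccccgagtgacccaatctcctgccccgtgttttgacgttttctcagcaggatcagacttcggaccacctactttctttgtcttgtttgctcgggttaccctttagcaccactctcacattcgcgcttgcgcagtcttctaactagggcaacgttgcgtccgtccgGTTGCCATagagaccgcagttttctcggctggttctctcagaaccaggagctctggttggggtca
The motif begins 105, 66 and 15 bases before the start site in Mlf1, Sntn and Tekt1. In the 6 to 8 band Mlf1 was at 320, 318, 400 and 279 CPM in tumor replicates 1, 2, 4 and 5, close together, against 10.98 to 48.8 CPM in Luc-positive cells. Sntn, whose product lies at the ciliary tip, spread from 49.9 CPM in tumor replicate 4 to 639 CPM in tumor replicate 1. Tekt1 lay between 140 and 421 CPM in these tumors.

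Over all ciliary genes with a window, searched on both strands, GTTGCCAT was in 11 of 109 promoters (10.1%), against 416 of 27025 promoters of all genes (1.54%). Its shorter form GTTGCC, which every GTTGCCAT also contains, was in 56 of 109 (51.4%) against 14.1% of all promoters, and in 18 of 28 promoters of the microtubule list. The forkhead letters TGTTTAC were in 4 of 109 (3.67%) against 4.05% of all promoters. All 4 lay in the microtubule list (4 of 28, 14.3%). The Mlf1 and Sntn windows printed above hold these letters unmarked, Sntn on the other strand. A match is a stretch of letters and does not show that a factor binds there.

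The other ciliary lists differed less. Intraflagellar transport genes, the cargo system of cilia of every kind, summed to 2.99-fold to 3.81-fold the Luc-positive level with 12 of 25 higher. Dynein arm assembly factors summed to 4.18-fold to 7.80-fold with 4 of 12 higher (Zmynd10 and Lrrc6 among them), and centriole amplification genes to 2.59-fold to 5.74-fold with 2 of 11 higher, the centrins Cetn2 and Cetn4. Of 12 ciliary transcription factors besides Foxj1 only Myb met the criterion, at 168, 43.1, 49.9 and 65.1 CPM against 0 to 7.05 CPM in Luc-positive cells of the 5 tumors. Its 49.9 CPM in tumor replicate 4 lay under the floor of 3 counts there (74.9 CPM), so Myb met the criterion in that tumor on few UMIs. The list summed to 0.99-fold to 2.43-fold, and Mcidas, an early inducer of multiciliated cells, had 0 UMIs in the 6 to 8 band. Among the tubulins only Ttll6, a tubulin-modifying enzyme counted with them, was higher, and 2 of 14 were lower.

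**Figure D3:**
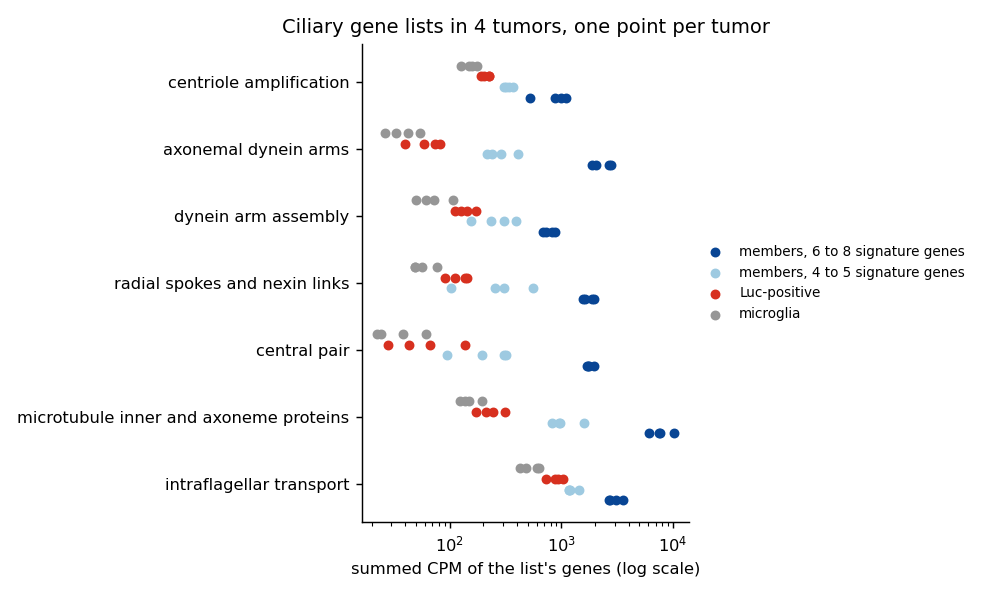
Summed CPM of 7 ciliary gene lists (x axis, log scale) in ependymal barcodes with 6 to 8 and with 4 to 5 signature genes, in Luc-positive cells and in microglia, 1 point for each of 4 tumors. In each list every 6 to 8 band point lies to the right of every point of the other 3 classes.

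The signature genes themselves varied in how far they marked the band. Ccdc153 was at 2338, 1395, 1024 and 1459 CPM in tumor replicates 1, 2, 4 and 5, and at 0 to 0.83 CPM in Luc-positive cells. Mia, by contrast, was present in Luc-positive cells at 348 to 835 CPM and in microglia of tumors at up to 470 CPM, so a Mia UMI was not particular to ependymal barcodes. Of the 33 tumor barcodes with 4 or 5 signature genes, 29 held a Mia UMI and 8 a Ccdc153 UMI.

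Outside the cilium, the 6 to 8 band held glial genes at 2.57-fold to 5.14-fold the Luc-positive level, with 9 of 22 higher and 1 lower. Dbi, which encodes the acyl-CoA and benzodiazepine-site binding protein, was at 16049, 10980.2, 22223 and 17138 CPM against 1797 to 4011 CPM in Luc-positive cells. S100a6, a calcium-binding protein, was at 1581, 2322, 1723 and 920 CPM against 18.8 to 101 CPM. The metallothioneins Mt1 and Mt3 and the intermediate filament gene Vim were also higher in all 4 tumors. Ependymal adhesion and planar polarity genes summed to 1.19-fold to 1.58-fold, with 1 of 19 higher and 0 lower. Secreted factors of the ventricular wall summed to 0.44-fold to 0.82-fold, with 1 of 21 higher and 5 lower. A list of genes linked to the fusion ran the other way from the glial genes, at 0.07-fold to 0.27-fold the Luc-positive level with 6 of 12 lower. This list includes Igf2, H19 and Dlk1 and was chosen with earlier results of these data known, so its level is a description only. Dlk1, an imprinted gene high in the Luc-positive cells, was at 0, 162, 849 and 437 CPM against 1172 to 4261 CPM, and Ccnd1, cyclin D1, was at 16.8, 210, 49.9 and 74.4 CPM against 191 to 941 CPM. Both genes in tumor replicate 1 and Ccnd1 in tumor replicate 4 lay under the floor of 3 counts there (50.5 and 74.9 CPM).

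Luciferase UMIs in the 6 to 8 band were set beside microglia, a lineage apart from the neural one that should lack the transcripts of the Nestin allele. A luciferase UMI was found in 8 of 56 tumor barcodes of the band (14.3%, exact Clopper-Pearson 95% interval 6.38 to 26.2), in 15.9% of microglia and in 31.0% of astrocytes of the tumors. The intervals cover counting error only. Depth differed, with a median of 6311.5 UMIs in the band and medians between 938 and 4304.5 UMIs in microglia of the 5 tumors, and over the pooled tumors the band held 28.0 CPM (11 UMIs) against 90.6 CPM in microglia, where 2220 of 2607 UMIs came from tumor replicate 4. Tumor by tumor the band held 0, 4, 5 and 2 luciferase UMIs in replicates 1, 2, 4 and 5, or 0, 21.6, 125 and 18.6 CPM, and microglia 6.01, 34.7, 158 and 38.6 CPM. Free RNA held 11.98, 77.9, 212 and 62.0 CPM in the same tumors. In replicates 1 and 5 the band was under its own floor of 3 counts (50.5 and 27.9 CPM), so no order between it and the other classes can be read there, and in replicates 2 and 4 it rests on 4 and 5 UMIs. The mean of the per-tumor shares was 14.8% in the band and 11.5% in microglia. At this depth no luciferase above the level of free RNA was detectable in the band. Free RNA here means the 3000 barcodes with fewest UMIs, with medians of 559 to 649 UMIs in tumors, which were not shown to be empty of cells. In the 4 to 5 band 12 of 33 tumor barcodes held a luciferase UMI (36.4%, interval 20.4 to 54.9). The intervals of the bands overlapped, which does not show that their shares agree. The tumors entered the bands unequally: tumor replicate 4, with the most luciferase in free RNA, gave 8 barcodes to the 6 to 8 band and 12 to the 4 to 5 band. A difference between the bands was not tested. The fusion sequence was found in 1 of 56 and 4 of 33 barcodes of the 2 bands, and luciferase in 0 of 14 ependymal and 0 of 29121 other kept barcodes of controls, whose genotype label does not name the fusion allele. The red reporter sequence of the controls was found in 2 of their 14 ependymal barcodes, both in the 4 to 5 band, beside 8.92% of control microglia and 8.90% of all other kept control barcodes, so no reporter level above that background was detectable. In tumors it was found in 0 of 89 ependymal and 0 of 35419 other kept barcodes.

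**Figure D4:**
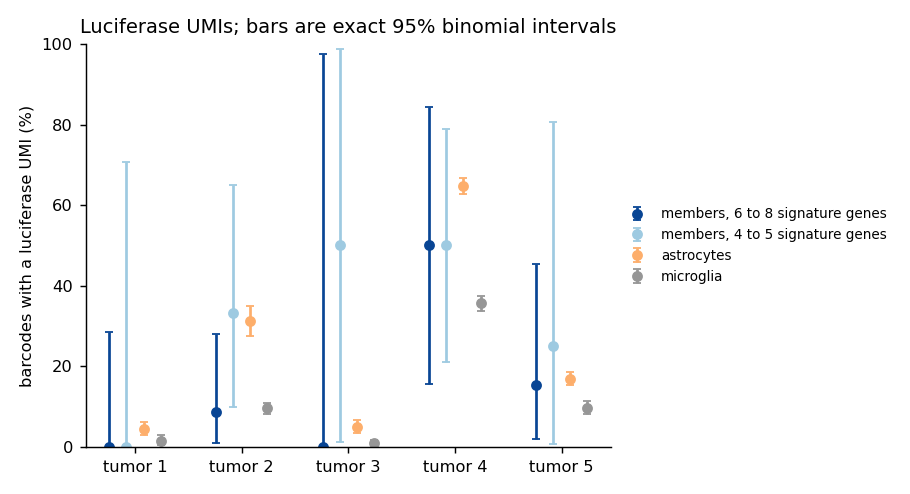
Share of barcodes with a luciferase UMI (y axis, percent) in each tumor for ependymal barcodes of both bands, astrocytes and microglia; points are shares and bars are exact binomial 95% intervals. The intervals of the ependymal bands are wide and overlap those of microglia in all 5 tumors.

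In the 6 to 8 band tumor replicate 4, with 8 barcodes, was the highest of the 4 tumors for the genes of antigen presentation, the interferon response and complement named here. H2-D1, a classical MHC class I heavy chain, was at 269, 356, 1748 and 186 CPM in tumor replicates 1, 2, 4 and 5, with a UMI in all 8 barcodes of replicate 4. H2-K1, the other classical chain, was at 135, 345, 1473 and 130 CPM. Tumor replicate 4 was the highest for both and lay apart from the other 3 tumors. Bst2, an antiviral membrane protein, was at 84.1, 108, 1049 and 112 CPM, and the interferon-induced modifier Isg15 was at 151, 145, 1074 and 27.9 CPM. Among complement genes C3, the component on which all 3 activation routes converge, was at 151, 108, 724 and 186 CPM, and C4b at 185, 237, 774 and 177 CPM. In Luc-positive cells of the same tumor H2-D1 was at 507, C3 at 20.3 and C4b at 33.6 CPM, and in its microglia at 1409, 46.8 and 44.7 CPM. The interferon list was highest in tumor replicate 4 in the other classes too, with a summed 2284 CPM in its Luc-positive cells against 643 to 2195 in the other 4 tumors, 3129 CPM in its microglia against 835 to 1868, and 2059 CPM in its free RNA against 517 to 1065. In the band it summed to 8140 CPM against 1552 to 3136 in tumor replicates 1, 2 and 5. The only ependymal barcode marked as a doublet was 1 of these 8, and without it H2-D1 was at 1895, H2-K1 at 1771, C3 at 715 and C4b at 746 CPM. Free RNA of replicate 4, from barcodes below the kept depth, held H2-D1 at 447, C3 at 40.1 and C4b at 94.8 CPM.

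Across the 4 tumors C3, C4b and Serping1, an inhibitor of complement, were higher in the band than in Luc-positive cells, and C1qa, C1qb and C1qc, the microglial subunits of C1q, were lower. Of 7 class II genes, Cd74, H2-Aa, H2-Eb1 and Ciita had 0 UMIs in the 6 to 8 band, and H2-Ab1, H2-DMa and H2-DMb1 had 3, 4 and 5 UMIs over the tumors. Colony-stimulating factors and chemokines gave few UMIs as well, with Csf1 in 19 of 56 tumor barcodes at 49.9 to 102 CPM and Csf2 at 0.

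**Figure D5:**
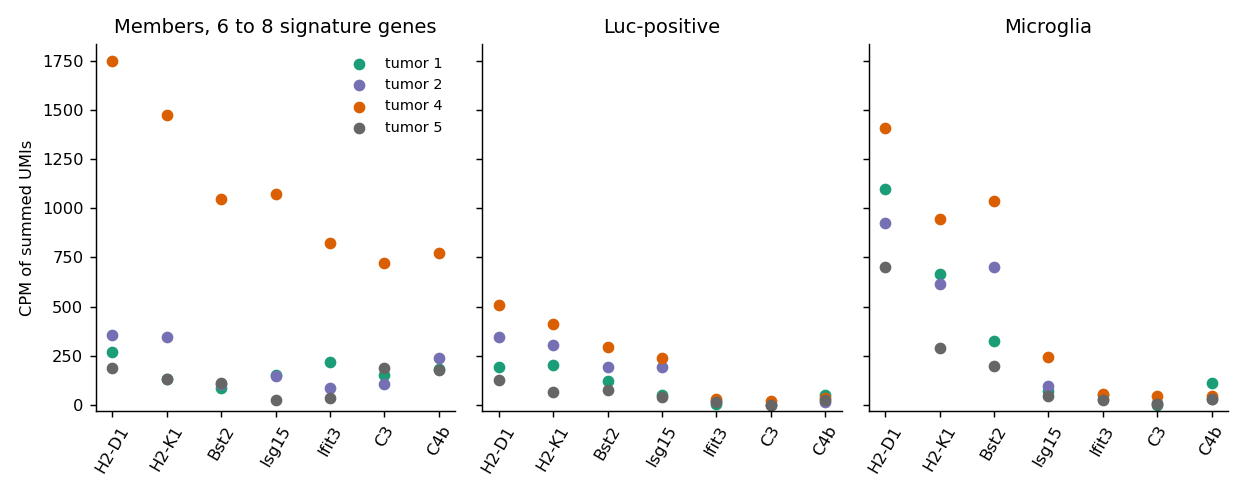
CPM of 7 immune genes (x axis) in ependymal barcodes with 6 to 8 signature genes, Luc-positive cells and microglia, 1 point for each of tumor replicates 1, 2, 4 and 5. Tumor replicate 4 (orange) reads 724 to 1748 CPM in the left panel, above every other tumor.

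The last comparison asked whether ependymal barcodes of tumors and controls differed in expression. No control library reached the minimum of 10 ependymal barcodes set for this test, so sums over all ependymal barcodes of each library, from 2 to 35 barcodes, were used instead. edgeR's quasi-likelihood test at an adjusted p of 0.05 called 78 of 602 genes (13%), 31 higher (5.15%) and 47 lower (7.81%) in tumors. The count depended on single libraries, with 120 calls without control replicate 1, 24, 18 and 19 without control replicates 2, 3 and 4, and 36 and 48 without tumor replicates 2 and 5. Without the 10 choroid-marked barcodes 5 genes were called, 0 higher and 5 lower of 824 tested. That fit had 3 control libraries with 2, 2 and 1 barcodes, since all 4 barcodes of control replicate 3 were choroid-marked, and leaving out control replicate 3 alone gave the 18 calls above. The controls also held more neuronal markers, a median of 5 of 8 per barcode against 1 in tumors, and restricting to barcodes with few microglia and neuron markers left 0 calls of 1396 genes by edgeR (121 at an unadjusted p under 0.05). That restriction left 1 barcode each in control replicates 2 and 3 and none in the other 2 controls, against 66 barcodes in the 5 tumors. Of the ciliary genes 11 were tested and 0 called, with a median log2 difference of 0.56 beside 0.11 over all genes tested. These sums mix the bands unequally, since 56 of 89 tumor barcodes but 3 of 14 control barcodes had 6 to 8 signature genes. Within that band the pooled axonemal dynein arm genes were at 2321 CPM in tumors and 4853 CPM in controls, and the central pair genes at 1795 and 3692 CPM, the opposite direction, with no test on 3 control barcodes. These pooled control values rest mainly on 1 barcode of control replicate 2, with 78 dynein arm and 51 central pair UMIs. The other 2 barcodes held 4 and 10 dynein arm UMIs, and 9 and 10 central pair UMIs.

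Of the glial list 15 genes were tested and 5 were higher in tumors: Vim, S100a6, Mt1, Mt2 and Mt3, with log2 differences of 3.59, 2.91, 2.84, 3.12 and 1.46. Markers of other cell types moved with the groups as well: tumor ependymal barcodes held a median of 4 of 9 astrocyte markers against 2 in controls, and 3 of 7 radial glia markers, Vim among them, against 1, and their part in these differences was not tested. Vim was at 472, 94.5, 22.7 and 103 CPM in control replicates 1 to 4 and at 1429, 2610, 1101, 1617 and 1196 CPM in tumor replicates 1 to 5 (edgeR log2 difference 3.59 ± 0.60 (SE), adjusted p = 0.00501). In the control sums over all ependymal barcodes the floor of 3 counts was 472, 70.9, 68.2 and 154 CPM. Control values of any gene at or under these floors, here and below, rest on at most 3 UMIs. The groups did not overlap for Vim, but control replicates 3 and 4 lay under their floors and control replicate 1 at its floor. Without the choroid-marked barcodes its difference was 2.18 with an edgeR adjusted p of 0.0973, and free RNA held Vim at 22.7 CPM in controls and 179 CPM in tumors. Cebpb, a transcription factor of acute-phase genes, was at 0, 23.6, 0 and 0 CPM in controls and 180 to 839 CPM in tumors (log2 difference 5.10 ± 0.89 (SE), edgeR adjusted p = 0.00501), with free RNA at 26.2 and 227 CPM; without the choroid-marked barcodes its difference was 8.23 and its edgeR adjusted p 0.0973. With controls at or near 0 UMIs this fitted difference depends on the prior count. Ckb, brain creatine kinase, was at 637 to 1258 CPM in controls and 2720 to 28207 CPM in tumors, with free RNA at 1579 and 6704 CPM and a log2 difference of 3.36 (edgeR adjusted p = 0.00822). Its difference was as large without the choroid-marked barcodes, at 3.48, with an edgeR adjusted p of 0.0624. The highest values of Ckb and Cebpb were those of tumor replicate 3. Of the 19073 UMIs in the ependymal sum of that library, 17773 came from 1 barcode, so its values in these fits rest mainly on it. That barcode held 4 signature genes without Ccdc153 or Tmem212, 0.214% ciliary UMIs and a luciferase UMI. The growth factor Mdk, the growth-related Dlk1 and the transcription factor Jund were the other list genes called, with log2 differences of 2.93, 6.20 and 1.62. None of the 31 higher calls was made without the choroid-marked barcodes, in a fit with 5 control barcodes, and of the 10 higher genes named by their p among those whose sign held with each library left out, the difference was larger than before for 5 (H2afv, Cebpb, Ckb, Ppp1r14b and Mdk) and smaller for 5 (Vim, Mgst1, Itm2c, Scg3 and Cnn3, at 1.21 to 2.58).

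Of the genes lower in tumors, Pcp4, a calmodulin-binding protein of neurons, was at 315 to 718 CPM in controls and 0 to 83.3 CPM in tumors (log2 difference -4.47 ± 0.55 (SE), edgeR adjusted p = 0.00104), with free RNA at 2231 CPM in controls and 245 CPM in tumors. Nrgn, neurogranin of neuronal dendrites, followed it at -3.67, with 1965 and 457 CPM in free RNA. The respiratory chain genes mt-Nd3, mt-Nd2, Atp5g1, Cox7b and Uqcrb differed by -2.47, -2.37, -2.27, -1.98 and -1.87. Without the choroid-marked barcodes they differed by -2.22, -2.04, -0.73, -0.03 and -0.90, and mt-Nd3 alone of these 5 passed (edgeR adjusted p = 0.0453). The share of UMIs from mitochondrial genes had a median of 11.02% in control and 5.32% in tumor ependymal barcodes, and its part in the differences of mt-Nd3 and mt-Nd2 was not tested. Pcp4 and Nrgn were not tested in that fit. Bsg, a membrane glycoprotein of barrier epithelia, was at 472, 1228, 4025 and 2155 CPM in controls and 315 to 611 CPM in tumors (-2.53), but without the choroid-marked barcodes its difference was 1.42 in the opposite direction (edgeR adjusted p = 0.302). The part of free RNA in these differences was not tested.

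Tested against the same difference in other cells of the same libraries, the tumor-control difference of ependymal barcodes departed from that of astrocytes in 205 of 10317 genes (1.99%; 1.21% higher and 0.775% lower) and from that of microglia in 317 of 8722 genes (3.63%; 2.88% higher and 0.757% lower), by edgeR's interaction test. Without control replicate 3 these counts were 67 and 139, and without tumor replicate 2 they were 167 and 105. Without the choroid-marked barcodes, which also drops control replicate 3, they were 92 (89 higher and 3 lower) and 123 (122 higher and 1 lower). Enpp2, which encodes autotaxin and is abundant in the choroid plexus, was among them at 157, 6259, 12984 and 8260 CPM in control replicates 1 to 4, beside 8506 CPM in the choroid plexus cells of controls. Its difference from microglia was -3.58, and without the choroid-marked barcodes 1.51, not past the threshold (edgeR adjusted p = 0.356). For the 5 genes with the smallest p and a higher difference in each comparison, the ependymal levels of the groups overlapped and the compared class was lower in every tumor than in every control. Elmod1 was at 0 to 315 CPM in ependymal sums of controls and 0 to 172 CPM in those of tumors, while astrocytes were at 139 to 152 CPM in controls and 0.15 to 32.4 CPM in tumors and free RNA held 167 CPM in controls and 47.0 CPM in tumors. A higher difference here therefore does not mean a higher level in ependymal barcodes of tumors. In the ependymal sums alone 602 genes passed the filter on low counts. Most genes of the interaction tests thus did not pass it on ependymal counts, and the percentages are not shares of genes measurable in ependymal barcodes. The ciliary gene Fam183b, at 52.4 to 916 CPM in all ependymal barcodes of the tumors, differed by 3.81 from its difference in microglia (2.88 without the choroid-marked barcodes, edgeR adjusted p = 0.00993), and its controls read 472, 449, 0 and 51.3 CPM, the highest values being the libraries with barcodes of the 6 to 8 band. The make-up of the control sums and the levels within cells cannot be told apart here.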

How the data were processed

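Single-cell 5′ gene expression was measured in 5 tumor and 4 control libraries. The deposited matrices hold UMI counts per gene and barcode that the authors made with Cell Ranger (6.1.2 in the matrix headers, 7 in the processing notes) on mm10, with the transgene sequences added; Scanpy 1.8.2 is also named in those notes. The counts were not normalized. Groups were taken from the genotype labels. Which library came from which animal is not given in the sources used here, and where the study counts mice for single-cell profiles of these tumors it counts fewer than the 5 tumor libraries. Some libraries may therefore share an animal, in which case the p-values, which measure the spread between libraries, are too small.

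The 10000 barcodes with most UMIs per library were filtered as described, which differs from the study's own cell filter and clustering. Doublets were marked by simulation at 0.8% per 1000 barcodes, and 1 ependymal barcode was marked and kept. Free RNA was summed over the 3000 deposited barcodes with fewest UMIs per library. In tumor replicate 3, 1853 of these were also kept barcodes. The 3000 barcodes had median depths of 559 to 649 UMIs in tumors and 691 to 1338 in controls, and were not shown to be empty of cells. Other classes needed UMIs of at least 4 of their markers. Counts were summed per library and class and tested with edgeR 4.0.16 (quasi-likelihood, TMM, Benjamini-Hochberg adjustment over all genes tested, filter on low counts), in R 4.3.3; limma 3.58.1 and DESeq2 1.42.0 were alternatives. Shares were compared by a two-sided exact permutation test (SciPy 1.17.1). The fits were tested on simulated data. The fits planned with at least 10 ependymal barcodes per library could not be made, because no control had 10, and a minimum of 1 was used.

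Named genes were the 10 with the smallest p in each direction whose sign held with each library left out, the 4 highest and the called genes of each list, the signature genes, the added sequences and, for each interaction, the 5 with the smallest p in each direction; Enpp2, Folr1 and the immune genes of tumor replicate 4 were also looked at after their values were seen. The members and gene lists were chosen with earlier results of these data known. The bands of 6 to 8 and 4 to 5 signature genes, the minimum of 5 barcodes per tumor for folds, and the alternatives without a mitochondrial limit, without choroid-marked barcodes, without the marked doublet and with 6 to 8 signature genes were chosen after seeing the data. Promoter windows came from RefSeq (GRCm38.p6), for 109 of 131 ciliary genes.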

Additional observations from a re-analysis of the deposited data

Results flagged for a closer look

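In the 6 to 8 band, tumor replicate 4 lay further from the other 3 tumors than Dixon's 95% limit for 4 values for 6 genes. It was at 724 CPM of C3, 774 of C4b, 1748 of H2-D1, 1473 of H2-K1, 1049 of Bst2 and 1074 of Isg15. In all, 33 groups of values were examined and these 6 were flagged. The 33 are not split here into genes of this band and other measures, so no rate for genes alone is given. Chance gives about 1 in 20 such groups, but the 6 flagged values are readings of the same 8 barcodes and are not independent of each other. The genes examined were in part picked after seeing their values. Among them B2m, Ifit3 and Ifitm3, also of the antigen presentation and interferon lists, were not flagged. Of the 8 barcodes of replicate 4, 1 was marked as a doublet, and without it the values were 715, 746, 1895, 1771, 1274 and 1212 CPM. The interferon list was also highest in replicate 4 in its microglia, Luc-positive cells and free RNA. The cause was not tested.

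The tumor-control difference of ependymal barcodes differed from that of another class, by edgeR's interaction test, in 205 genes for astrocytes and 317 for microglia. Against astrocytes the 5 genes with the smallest p and a higher difference were Elmod1 (4.45 on the log2 scale), Ccdc113 (4.88), 1700024G13Rik (6.82), 3300002A11Rik (7.84) and Cdr1os (3.59). Those with a lower difference were Cdkn1c (-5.93), Cox6b2 (-4.57), Igfbp2 (-4.13), Igf2 (-4.51) and Ltc4s (-5.70). Against microglia the higher ones were Elmod1 (4.19), Cdr1os (3.74), Pvalb (4.01), Fam183b (3.81) and Arhgdig (3.67). For each of these higher differences the compared class was lower in all 5 tumors than in all 4 controls, and the ependymal levels of the groups overlapped: Elmod1, for example, was at 80.2 CPM in pooled control and 136 CPM in pooled tumor ependymal barcodes, but at 132 and 8.27 CPM in microglia. The lower ones against microglia were Lgals1 (-5.36), Ltc4s (-6.03), Cdkn1c (-4.80), Enpp2 (-3.58) and Cox6b2 (-4.00). Without the choroid-marked barcodes, which also drops control replicate 3, the 10 higher differences named here kept their sign and stayed past the threshold, and 0 of the 10 lower ones passed it. The control sums behind these values hold 2 to 5 barcodes per library.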

How the results depend on the processing

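The difference in ependymal share kept its direction under every alternative run. By the exact permutation test it no longer passed 0.05 with 3 of 8 signature genes (0.716 points, p = 0.0635), 3 of 6 ciliary signature genes (0.165, p = 0.206), at least 500 genes (0.249, p = 0.0635), 5000 barcodes (0.318, p = 0.0794), thinning to 1000 UMIs (0.178, p = 0.0794), a denominator with few neuronal markers (0.135, p = 0.429) and no mitochondrial limit (0.0872, p = 0.175). The 6 ciliary signature genes were those other than Rarres2 and Mia. Leaving out 1 library gave 0.178 to 0.313 points. The replicate numbers did not pair the libraries: same-numbered deviations correlated at 0.191, 0.0555, -0.0194 and 0.0429, and only control replicate 1 correlated best with its own number. With the replicate block the share difference was 0.282 points (exact permutation p = 0.25, a design of 4 pairs that cannot go below 0.125) and the edgeR count was 68 genes. The ciliary difference from Luc-positive cells moved to 3.64 in the 6 to 8 band, the single barcode of tumor replicate 3 included, and was 2.36 to 2.89 with 1 tumor left out. The mean over tumors of the share of all ependymal barcodes with a luciferase UMI was 23.6%, and 17.0% to 29.5% with 1 tumor left out. The 78 calls became 271 with no filter on low counts, 12 with 5 of 8 signature genes, 37 with a 10% mitochondrial limit, 5 without choroid-marked barcodes and 0 with few microglia and neuron markers (2 control barcodes left), and 18 to 120 with 1 library left out. DESeq2 gave 98 and limma voom 96 (22 higher and 74 lower). The interaction counts became 807 for astrocytes and 682 for microglia with limma voom, 92 and 123 without choroid-marked barcodes, and 67 to 325 and 105 to 347 with 1 library left out. Bsg reversed to 1.48 with 5 of 8 signature genes and to 1.42 without choroid-marked barcodes, and Cox7b reversed to 0.10 with 5 of 8. Without choroid-marked barcodes the interaction differences reversed for Cdkn1c (5.93), Igfbp2 (1.37), Igf2 (7.53) and Ltc4s (5.81) against astrocytes and for Lgals1 (6.13), Ltc4s (5.08), Cdkn1c (6.40) and Enpp2 (1.51) against microglia; the cause was not tested. Of the other values of named genes, 540 kept direction and side of the threshold and 79 lost the call. The fits with at least 10 barcodes per library were not run. With 2 to 5 ependymal barcodes per control, low genes were not detectable.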
